A study of Mus musculus with 12 samples.

Results

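Pressure overload was examined in the hearts of mice that had received a control virus. The 6 libraries described were chosen by their labels alone, from the 12 libraries of a series on PRODH, the mitochondrial enzyme that opens proline breakdown. All animals were wild-type C57BL/6 mice. The 3 TAC hearts came from mice injected with AAV9-Vector, the adeno-associated virus set against AAV9-PRODH in the series, that underwent transverse aortic constriction (TAC), a band around the aortic arch that raises the load on the left ventricle. The 3 sham hearts came from mice with the same virus and a sham operation. Surgery followed the injection by 3 weeks, and the tissue was taken 4 weeks after surgery. The remaining 6 mice, injected with AAV9-PRODH and given TAC or sham surgery in groups of 3, entered the shared estimate of the spread and the closing comparison. The labels give neither the age of the mice nor the part of the heart that was taken, and p-values measure the spread between these libraries.

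A ventricle that works against a raised pressure thickens its muscle cells, and over weeks the tissue between them changes too. Cardiac myocytes return to part of a fetal gene program, with natriuretic peptides and slow contractile isoforms, while fatty acid burning and repolarising potassium currents are known to decline. Fibroblasts that sense stretch and TGF-beta turn into matrix-secreting cells and lay down collagen.

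All levels below are normalised read counts, the deposited unit, which corrects for library size and not for gene length. A difference is the mean log2(value + 1) of the 3 TAC hearts minus that of the 3 sham hearts, given with its standard error. A gene was called higher or lower at a Benjamini-Hochberg adjusted p under 0.05 over all 21173 genes that reached a value of 1 in at least 3 of the 12 libraries. The recovered read totals were 10.57, 13.95 and 15.23 M in the TAC hearts and 10.73, 12.31 and 10.89 M in the sham hearts.

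TAC replicate 1 stood apart from the other two TAC hearts. Its read counts differed from theirs with a chi-square per degree of freedom of 87.2 and 82.5, against 8.8 between TAC replicates 2 and 3 and 16.9 to 29.5 among the sham hearts. Genes with under 1 kb of exon lay 0.55 above the sham mean on the log2 scale in TAC replicate 1 and -0.37 and -0.34 from it in the other two, as a median over 752 genes. The sham hearts also differed on this measure, at 0.24, -0.23 and 0. Mesothelial genes Upk3b and Msln both had 141 in that heart and at most 0.74 in the other two TAC hearts, and the red cell genes Hba-a1 and Hbb-bs were also highest there. Without TAC replicate 1 the number of called genes was 3455 (16.6% of 20834) in place of 1645, with 1626 higher (7.8%) and 1829 lower (8.78%). After the counts of a list, brackets give its rises and then its falls without a heart, or in a fit to the 6 vector hearts alone, wherever that moved either number by more than 1.5 times. A list median is added where it moved by more than 1.5 times and at least 0.2, and no bracket means no such move. The part of these shifts in the results was not tested.

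The tissue label was checked against defining markers. Myl2, the ventricular myosin light chain, stood at 113440.5, 54749 and 53410.2 in TAC hearts, against 89984, 79546 and 106843 in sham hearts. The atrial light chain Myl7 reached at most 6.69 in any vector heart and the atrial calcium pump inhibitor Sln at most 2.05, so both defining atrial markers were near 0.

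Between TAC and sham hearts 1645 genes were called, 7.77% of those tested. Of these 787 rose (3.72%) and 858 fell (4.05%), while the median difference over all genes was 0.018. Rises were larger than falls, with a median size of 1.22 against 0.83 on the log2 scale. At least a 4-fold difference was reached by 190 rises and 68 falls, and at least an 8-fold one by 69 rises and 12 falls. Of the rises 36 lay below 1 in every sham heart, and of the falls 8 lay below 1 in every TAC heart. The groups did not overlap for 747 of the rises and 838 of the falls, and over all tested genes they did not overlap for 4272, or 20.2%. Calls were more frequent among abundant genes, at 17.4% of the 2146 genes with a mean of 1000 or more and 1.42% of the 7196 with a mean under 10. Leaving out any 1 of the 6 libraries kept 335 rises and 374 falls, and the number called was 821 without TAC replicate 2. A fit to the 6 vector libraries alone called 652 genes, 352 higher and 300 lower.

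**Figure D1:**
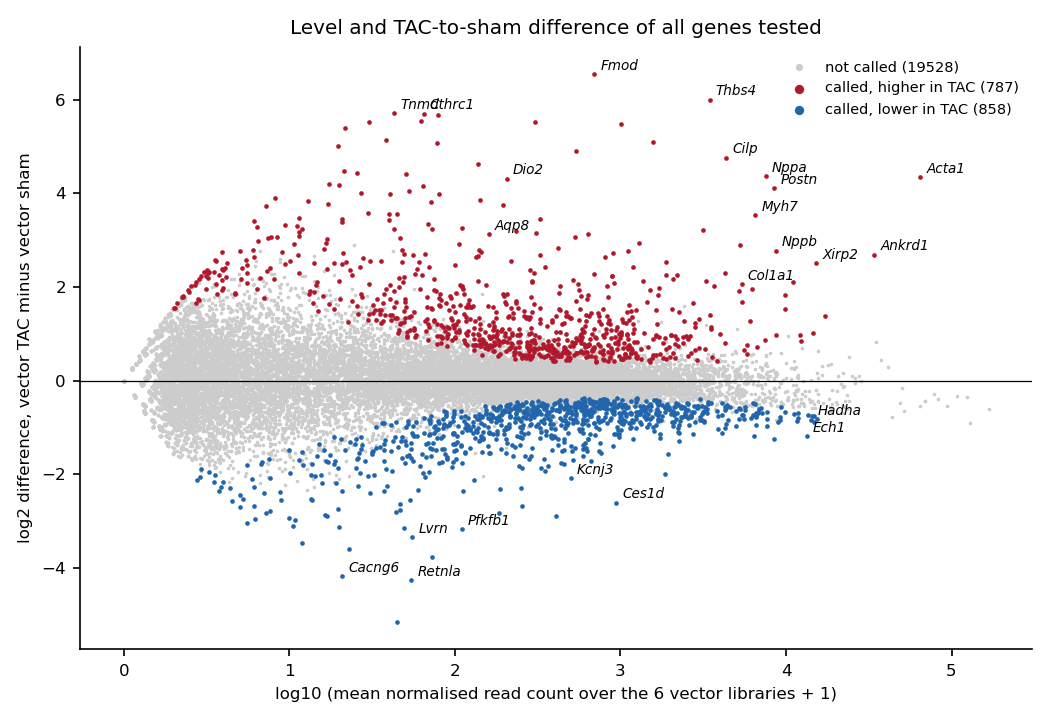
Each point is 1 of the 21173 genes tested, placed by its mean normalised read count over the 6 vector libraries (log10 axis) and by its log2 difference, vector TAC minus vector sham; red points rose (787), blue points fell (858), grey points were not called. Rises such as Fmod and Thbs4 reached 6 or more on the log2 scale, and the abundant genes Acta1 and Ankrd1 lie far right and high.

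Of the fetal and hypertrophy program 15 rose and 1 fell of 24 tested, with a median log2 difference of 1.28 (15 and 3 without TAC replicate 1, 12 and 0 without TAC replicate 2 or 3, 13 and 0 without sham replicate 1, 2 or 3, 13 and 0 from the vector hearts alone), against 0.018 for all genes. Nppa, which encodes atrial natriuretic peptide, stood at 5789.8, 22464 and 15172 in TAC hearts, against 446, 614 and 810.2 in sham hearts. The Nppa log2 difference was 4.37 ± 0.41 (limma adjusted p = 3.18e-05). The lowest TAC heart, replicate 1, was still far above every sham heart. Nppb, the gene of B-type natriuretic peptide, stood at 14077, 15576 and 15581 in TAC hearts, against 2558, 2677 and 1542 in sham hearts, and the 3 TAC hearts were close to one another (log2 difference 2.78 ± 0.18, limma adjusted p = 2.81e-06). Myh7, the slow beta-myosin heavy chain, had 4242, 17684 and 14192 in TAC hearts, against 491, 796 and 1725 in sham hearts. The Myh7 log2 difference was 3.54 ± 0.47 (limma adjusted p = 0.000282). TAC and sham values did not overlap for any of these 3 genes. TAC replicate 1 was the lowest of its group for each of them, by a small margin for Nppb. Acta1, skeletal alpha-actin, ran the other way within the TAC hearts. It stood at 171453, 101847 and 87443 in TAC hearts, against 3132, 2719 and 21556 in sham hearts, so that TAC replicate 1 was highest and sham replicate 3 lay well above the other two sham hearts (log2 difference 4.34 ± 0.64, limma adjusted p = 0.000644). Acta1 alone took 1.45%, 0.982% and 0.838% of all reads in the TAC hearts, against 0.0284%, 0.0244% and 0.188% in the sham hearts.

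Other members of the list also rose. Ankrd1, a titin-bound ankyrin repeat protein, had 55188, 63516 and 58112 in TAC hearts, against 7801, 7371 and 13117 in sham hearts (log2 difference 2.69 ± 0.24, limma adjusted p = 2.59e-05). Xirp2, an actin-binding protein of the intercalated disc, had 19448, 33601 and 24261 in TAC hearts, against 2681, 4732 and 6718 in sham hearts. The Xirp2 log2 difference was 2.51 ± 0.28 (limma adjusted p = 9.34e-05). Ccn2, or connective tissue growth factor, had 4299, 12125 and 11883 in TAC hearts, against 1001, 1202 and 1246 in sham hearts. The Ccn2 log2 difference was 2.90 ± 0.28 (limma adjusted p = 3.45e-05). None of these 3 genes overlapped between the groups. Nmrk2, a nicotinamide riboside kinase, Rcan1, a calcineurin target and inhibitor, and Fhl1, a titin-binding LIM protein, rose with log2 differences of 2.55, 1.67 and 1.41. The fall in the list was Tnnt1, slow skeletal troponin T, at 173, 69.9 and 80.1 in TAC hearts, against 202, 234 and 211 in sham hearts, and the call was lost without TAC replicates 2 or 3 or sham replicates 1, 2 or 3 (limma adjusted p up to 0.136).

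The promoters of the leading genes of this program are shown because the genes rose together. Windows of 250 bases before to 50 bases after the transcript start were taken from RefSeq on GRCm38.p6. They were searched for CATTCC, the core bound by TEAD factors, for AGATAA, a form of the site of GATA factors, and for the E-box CACGTG. Both strands were searched, and a match on the other strand is shown as its reverse complement. No match overlapped another, capitals mark the matches, and positions count from the transcript start.
Nppb (chr4:147985650-147985949, plus strand): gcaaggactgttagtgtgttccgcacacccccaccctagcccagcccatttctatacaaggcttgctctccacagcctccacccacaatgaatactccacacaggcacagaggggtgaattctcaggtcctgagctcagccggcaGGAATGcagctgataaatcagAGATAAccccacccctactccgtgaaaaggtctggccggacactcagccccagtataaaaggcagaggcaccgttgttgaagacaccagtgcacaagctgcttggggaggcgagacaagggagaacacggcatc
Ankrd1 (chr19:36119795-36120094, minus strand): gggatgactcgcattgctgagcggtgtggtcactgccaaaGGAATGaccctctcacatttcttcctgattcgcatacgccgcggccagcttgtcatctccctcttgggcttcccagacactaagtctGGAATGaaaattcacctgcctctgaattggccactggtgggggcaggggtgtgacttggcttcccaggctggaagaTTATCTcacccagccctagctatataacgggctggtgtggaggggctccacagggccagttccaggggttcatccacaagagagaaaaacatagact
Acta1 (chr8:123894726-123895025, minus strand): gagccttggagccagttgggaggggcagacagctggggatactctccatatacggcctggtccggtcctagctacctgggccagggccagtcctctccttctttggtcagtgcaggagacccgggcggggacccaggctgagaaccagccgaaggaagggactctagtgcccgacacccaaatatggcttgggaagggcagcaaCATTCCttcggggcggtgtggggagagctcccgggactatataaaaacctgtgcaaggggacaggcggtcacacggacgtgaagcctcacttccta
Myh7 (chr14:54994577-54994876, minus strand): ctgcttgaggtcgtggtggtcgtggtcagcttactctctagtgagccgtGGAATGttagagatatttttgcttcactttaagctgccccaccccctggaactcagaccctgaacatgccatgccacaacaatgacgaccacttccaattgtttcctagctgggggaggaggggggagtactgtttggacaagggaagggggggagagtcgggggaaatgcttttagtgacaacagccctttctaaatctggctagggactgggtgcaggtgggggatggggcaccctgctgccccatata
Nppb held CATTCC in reverse at -105 and AGATAA at -84. In Ankrd1 CATTCC lay in reverse at -210 and -123 and AGATAA in reverse at -47, and Acta1 held CATTCC at -46. Myh7 held CATTCC in reverse at -201, and a second Myh7 window and the Nppa window at chr4:148000472-148000771 held none of the motifs. Other forms of these sites were not searched, so a window without a match may still hold a TEAD or GATA site. Among 32851 promoter windows of the same length, 14.7% held CATTCC, 11.2% AGATAA and 7.15% CACGTG.

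**Figure D2:**
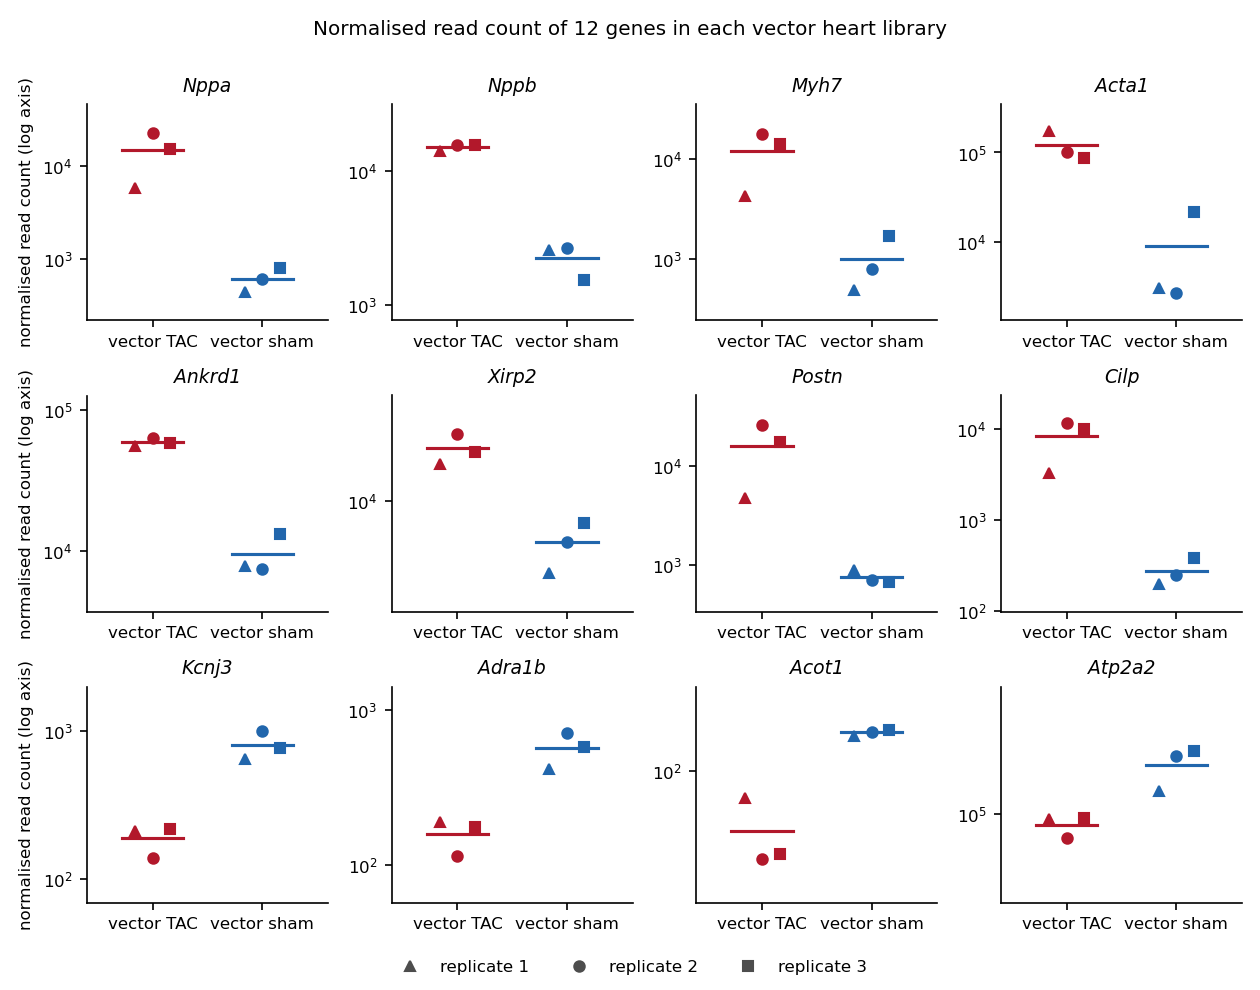
Normalised read count (log axis, a separate range for each gene) of 12 genes in the 3 vector TAC hearts (red, left) and the 3 vector sham hearts (blue, right) of each panel; symbols give the replicate and bars the mean. Nppa, Nppb, Myh7, Ankrd1, Xirp2, Postn and Cilp were lowest in TAC replicate 1 among the TAC hearts, and Acta1, Adra1b and Acot1 were highest there. The groups did not overlap in any panel, and Atp2a2 was the panel whose difference was not called.

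For sarcomere proteins 2 rose and 4 fell of 29 tested, with a median log2 difference of -0.22 (3 and 7 without TAC replicate 1, 2 and 2 without TAC replicate 2 or sham replicate 2, 2 and 1 from the vector hearts alone, a median of 0.02 without sham replicate 3). Mylk4, a myosin light chain kinase of striated muscle, fell to 824, 488 and 1012 in TAC hearts, against 2573, 3329 and 2992 in sham hearts (log2 difference -1.99 ± 0.22, limma adjusted p = 8.43e-05). Tmod1, which caps thin filaments, had 1741, 1479 and 1814 in TAC hearts, against 2262, 3348 and 2609 in sham hearts. The Tmod1 log2 difference was -0.69 ± 0.14 (limma adjusted p = 0.00723). Myh6, the fast alpha-myosin heavy chain, had 127248, 126708 and 136409 in TAC hearts, against 128235, 233896 and 254283 in sham hearts and was not called (log2 difference -0.60 ± 0.44, limma adjusted p = 0.514). Sham replicate 1 lay within the range of the TAC hearts. Cardiac actin Actc1 was also not called (log2 difference -0.34 ± 0.36, limma adjusted p = 0.687), although its 3 TAC values all lay below the sham values. The near-identical coding parts of these pairs mean that reads may be split unevenly between them, and how shared reads were counted is not stated.

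Isoform balance was compared within pairs, on values per kilobase of exon. Myh7 made up, as a percent of Myh7 and Myh6 together, 2.54, 9.82 and 7.51 in the TAC hearts, against 0.298, 0.265 and 0.527 in the sham hearts. Acta1 made up, as a percent of both alpha-actins, 60.7, 50.1 and 47 in the TAC hearts, against 2.65, 1.73 and 14.5 in the sham hearts. Cardiac actin was in the majority in every sham heart and in 1 of the 3 TAC hearts. The slow beta-myosin was a minor form in every heart. Other pairs also differed. The platelet form of phosphofructokinase, Pfkp, was, as a percent of Pfkp and Pfkm, 3.61, 7.2 and 4.98 in the TAC hearts, against 1.51, 1.69 and 1.44 in the sham hearts. Hk1 as a percent of both hexokinases was 34.3, 39.4 and 36.2 in the TAC hearts, against 27.2, 22.9 and 27.5 in the sham hearts, and brain-type creatine kinase Ckb as a percent of Ckb and Ckm was 5.54, 15.1 and 10.1 in the TAC hearts, against 4.37, 5.05 and 4.03 in the sham hearts. Ribosomal protein Rpl3, as a percent of Rpl3 and its muscle paralog Rpl3l, was 56.1, 64.5 and 56.3 in the TAC hearts, against 37.1, 25.8 and 30.4 in the sham hearts. In these pairs the TAC and sham hearts did not overlap, whereas they did overlap for Cpt1a with Cpt1b and Cox6a1 with Cox6a2.

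**Figure D3:**
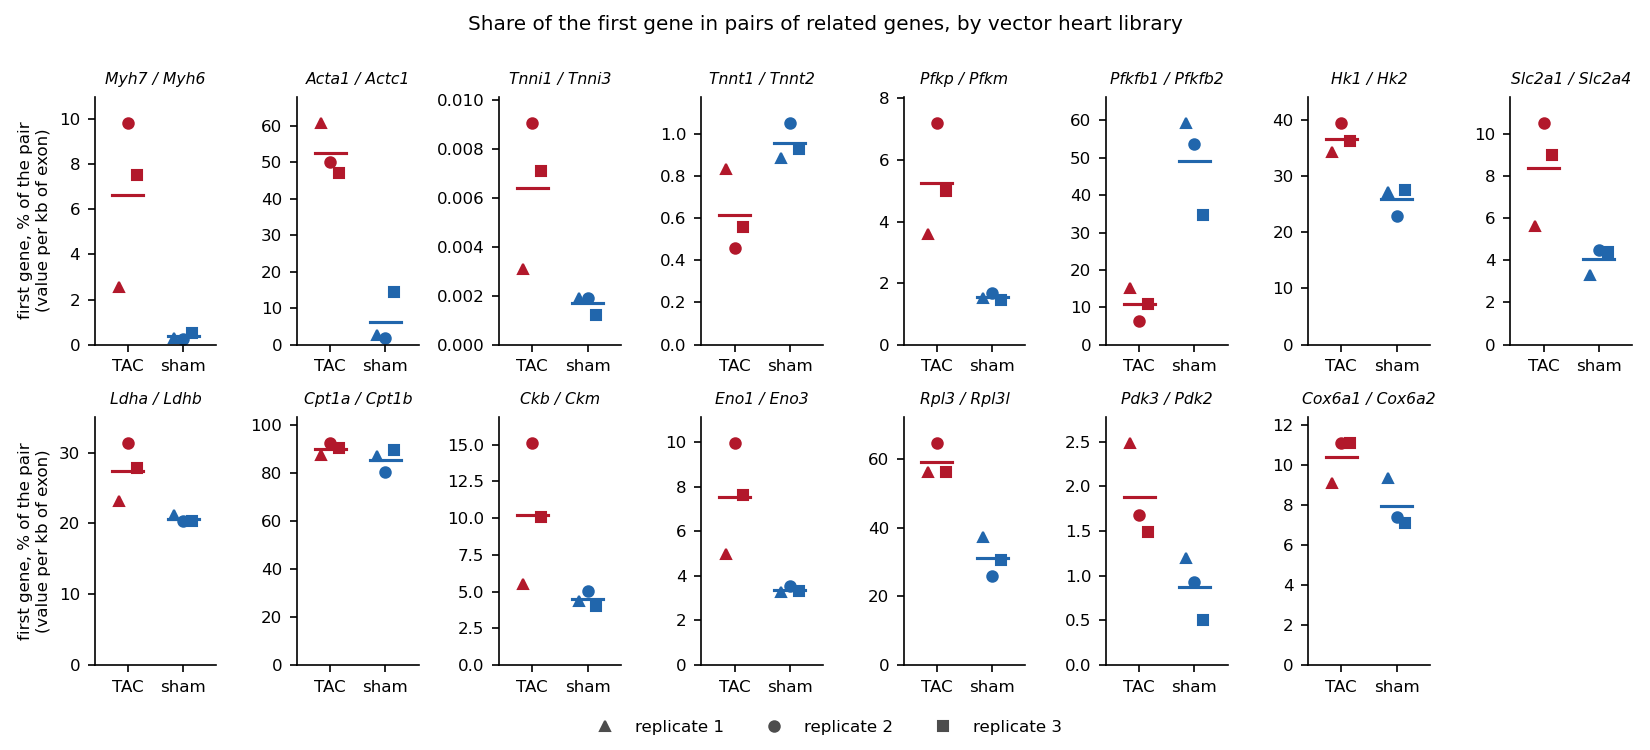
Share of the first-named gene in 15 pairs of related genes, in percent of the sum of both genes' values per kilobase of exon, for the 3 vector TAC hearts (red, left) and the 3 vector sham hearts (blue, right); symbols give the replicate and bars the mean. The Acta1 share was 47 to 60.7% in TAC hearts and 1.73 to 14.5% in sham hearts, and TAC replicate 1 lay nearest to the sham hearts for Myh7, Pfkp, Ckb and Eno1.

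At the Z-disc and in the filaments that anchor it, rises outnumbered falls: 7 rose and 2 fell of 35 tested, with a median log2 difference of 0.11 (10 and 4 without TAC replicate 1, 5 and 0 without TAC replicate 2, 7 and 0 without TAC replicate 3 or sham replicate 2, 7 and 1 without sham replicate 1, 9 and 1 without sham replicate 3, 4 and 0 from the vector hearts alone). Synpo2l, an actin-bundling Z-disc protein, had 4371, 9307 and 7630.4 in TAC hearts, against 942, 1546 and 1823 in sham hearts. The Synpo2l log2 difference was 2.29 ± 0.25 (limma adjusted p = 8.47e-05). Flnc, the muscle filamin, had 7149, 9026 and 9128 in TAC hearts, against 2128, 4133 and 4823 in sham hearts (log2 difference 1.26 ± 0.24, limma adjusted p = 0.0041). Both genes were higher in every TAC heart than in any sham heart. Krt18, a keratin that normal adult myocytes hardly make, had 48, 61.7 and 33.6 in TAC hearts, against 1.03, 0 and 4.2 in sham hearts. The Krt18 log2 difference was 4.43 ± 0.72 (limma adjusted p = 0.00137). Its partner Krt8 was counted at 36 reads over the TAC hearts and 0 over the sham hearts, at least 9.82-fold higher with 3 reads over the group taken as the floor, and the call was lost without TAC replicate 2 (limma adjusted p up to 0.0606). Both keratins are also mesothelial genes, and the mean of the mesothelial list is given with the other cell types. Ankrd23, a titin-bound repeat protein, Nrap, a protein of developing myofibrils, and Vim, an intermediate filament of fibroblasts, also rose (log2 differences 1.46, 0.97 and 0.87). For Vim the call was lost without TAC replicate 2 or sham replicate 3 (limma adjusted p up to 0.0582). The structural anchors Actn2 (log2 difference 0.10 ± 0.22, limma adjusted p = 0.874) and Ldb3 (log2 difference -0.09 ± 0.19, limma adjusted p = 0.865) were not called. Myot, the Z-disc protein myotilin, had 2186, 1366 and 1499 in TAC hearts, against 457, 408 and 1729 in sham hearts and was not called (log2 difference 1.26 ± 0.43, limma adjusted p = 0.0921), with sham replicate 3 inside the TAC range.

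Of the microtubule and actin cytoskeleton genes 7 rose and 2 fell of 42 tested, with a median log2 difference of 0.37 (19 and 2 without TAC replicate 1, 3 and 1 without TAC replicate 2, 4 and 1 without TAC replicate 3 or sham replicate 2, 2 and 2 without sham replicate 3, 1 and 2 from the vector hearts alone). Lmna, the nuclear lamin A/C gene, had 2172, 3080.4 and 2874 in TAC hearts, against 1582, 1609.96 and 1506 in sham hearts. The Lmna log2 difference was 0.78 ± 0.14 (limma adjusted p = 0.00228). Actn1, the non-muscle alpha-actinin, had 547, 1165 and 1030.2 in TAC hearts, against 397, 459.99 and 453 in sham hearts (log2 difference 0.99 ± 0.21, limma adjusted p = 0.00744). Ttll1, a tubulin polyglutamylase subunit, fell to 325, 199.96 and 285 in TAC hearts, against 852, 665 and 746 in sham hearts. The Ttll1 log2 difference was -1.50 ± 0.21 (limma adjusted p = 0.000398). At the intercalated disc 2 rose and 4 fell of 20 tested, with a median log2 difference of -0.27 (4 and 5 without TAC replicate 1, 1 and 3 without TAC replicate 2, 1 and 5 without TAC replicate 3, 1 and 6 without sham replicate 1, 2 and 2 without sham replicate 2 or 3, 1 and 1 from the vector hearts alone). The desmosomal cadherin Dsg2 had 367, 254 and 426 in TAC hearts, against 735, 946 and 937 in sham hearts. The Dsg2 log2 difference was -1.34 ± 0.20 (limma adjusted p = 0.000731). Tmem65, an intercalated disc protein, fell (log2 difference -0.68). Connexin 43 (Gja1, log2 difference -0.26 ± 0.17, limma adjusted p = 0.456), N-cadherin (Cdh2, log2 difference -0.44 ± 0.17, limma adjusted p = 0.164) and desmoplakin (Dsp, log2 difference 0.07 ± 0.25, limma adjusted p = 0.927) were not called, and each overlapped between the groups.

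Calls among sarcoplasmic reticulum calcium genes were all in the downward direction with all libraries: 0 rose and 5 fell of 32 tested, with a median log2 difference of -0.12 (3 and 8 without TAC replicate 1, 0 and 2 without TAC replicate 2 or sham replicate 2 or 3, 0 and 1 without TAC replicate 3, 1 and 5 without sham replicate 1, 0 and 0 from the vector hearts alone). Hrc, a histidine-rich calcium-binding protein of the reticulum, had 5431, 4693 and 5437 in TAC hearts, against 7878, 12867 and 10091 in sham hearts (log2 difference -0.96 ± 0.18, limma adjusted p = 0.00422), with all TAC values below all sham values. Phospholamban (Pln), the brake on the calcium pump, had 13041, 9615 and 9337 in TAC hearts, against 16821, 16666 and 20307 in sham hearts (log2 difference -0.76 ± 0.19, limma adjusted p = 0.0203), and the call was lost without TAC replicates 2 or 3 or sham replicate 3 (limma adjusted p up to 0.095). The calcium release channel Ryr2 had 8866, 6764 and 8765 in TAC hearts, against 9237, 18199.5 and 18578 in sham hearts. The Ryr2 log2 difference was -0.86 ± 0.24 (limma adjusted p = 0.0381), and the call was lost without TAC replicates 2 or 3 or sham replicates 2 or 3 (limma adjusted p up to 0.168). The pump itself, Atp2a2 or SERCA2, had 94726, 76909 and 95138 in TAC hearts, against 128240.0, 185279 and 195914 in sham hearts and was not called (log2 difference -0.92 ± 0.38, limma adjusted p = 0.188), although its groups did not overlap. Without TAC replicate 1 it was called (log2 difference -0.96, limma adjusted p = 0.0421).

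Potassium channel genes had the lowest median of the 56 lists in this fit: 0 rose and 16 fell of 30 tested, with a median log2 difference of -0.85 (1 and 15 without TAC replicate 1). Kcnj3, which encodes the GIRK1 subunit of the acetylcholine-gated channel, had 213, 139 and 221 in TAC hearts, against 649, 1001 and 777 in sham hearts. The Kcnj3 log2 difference was -2.08 ± 0.19 (limma adjusted p = 2.59e-05). Its partner subunit Kcnj5 had 417, 231 and 314 in TAC hearts, against 683, 987 and 929.96 in sham hearts (log2 difference -1.45 ± 0.20, limma adjusted p = 0.000364). Each of the 3 TAC values lay below each sham value in both genes. The inward rectifier Kcnj2 had 115, 158 and 114 in TAC hearts, against 358, 511 and 325 in sham hearts. The Kcnj2 log2 difference was -1.60 ± 0.23 (limma adjusted p = 0.000549). Its relative Kcnj12 fell (log2 difference -1.23). Kcnh2, the ERG channel of repolarisation, had 445, 324 and 395 in TAC hearts, against 1019, 972 and 1425 in sham hearts. The Kcnh2 log2 difference was -1.54 ± 0.19 (limma adjusted p = 0.000183). Kcnd2, a transient outward channel, fell (log2 difference -1.43). The silent subunit Kcnv2 and the pacemaker channels Hcn2 and Hcn4 had log2 differences of -1.98, -1.37 and -1.64, all called. None of these 9 genes lost its call when any 1 vector library was left out.

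Among sodium, calcium and chloride channels 3 rose and 8 fell of 35 tested, with a median log2 difference of -0.41 (5 and 9 without TAC replicate 1, 3 and 5 from the vector hearts alone). Cacng6, a gamma subunit of calcium channels, fell to 2.23, 1.49 and 0 in TAC hearts, against 53.5, 43.5 and 18.9 in sham hearts (log2 difference -4.18 ± 0.51, limma adjusted p = 0.000154). The muscle chloride channel Clcn1 had 15.6, 4.46 and 13 in TAC hearts, against 66.8, 82.4 and 75.7 in sham hearts. The Clcn1 log2 difference was -2.80 ± 0.36 (limma adjusted p = 0.000209). Neither gene overlapped between the groups. Fgf13, which binds sodium channels, fell (log2 difference -0.91), and so did Scn4a, the skeletal muscle sodium channel (log2 difference -1.21). The stretch-gated channel Piezo2 rose, with 25.7, 78 and 80.1 in TAC hearts, against 8.23, 9.96 and 7.36 in sham hearts (log2 difference 2.55 ± 0.52, limma adjusted p = 0.00693). Scn4b had a log2 difference of -1.14, though the call was lost without TAC replicates 2 or 3 or sham replicates 2 or 3 (limma adjusted p up to 0.102).

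The list of adrenergic, angiotensin, endothelin and natriuretic signalling, which holds enzymes as well as receptors, had more falls than rises. Of its genes 5 rose and 11 fell of 46 tested, with a median log2 difference of -0.10 (8 and 12 without TAC replicate 1, 1 and 12 without TAC replicate 2 or 3, 2 and 12 without sham replicate 2, 3 and 12 without sham replicate 3, 0 and 9 from the vector hearts alone). The alpha-1 adrenergic receptor Adra1b had 189.7, 114 and 175 in TAC hearts, against 414, 707 and 578 in sham hearts. The Adra1b log2 difference was -1.82 ± 0.20 (limma adjusted p = 8.43e-05). Adra1a had a log2 difference of -1.37. The beta-1 receptor Adrb1 had 152, 153 and 125 in TAC hearts, against 296, 423 and 273 in sham hearts (log2 difference -1.18 ± 0.19, limma adjusted p = 0.00111). These TAC values were all lower than the sham values. The adenosine receptor Adora1 (-1.24), the muscarinic receptor Chrm2 (-1.15) and the angiotensin receptor Agtr1a (-0.87) were also called lower, with the log2 differences in brackets. Angiotensin-converting enzyme (Ace) rose, with 2325, 5729.7 and 4977 in TAC hearts, against 1462, 1770.2 and 1692 in sham hearts. The Ace log2 difference was 1.31 ± 0.24 (limma adjusted p = 0.0032). Corin, the protease that activates natriuretic peptides, had 863, 991 and 1253 in TAC hearts, against 1802, 2049 and 2003 in sham hearts (log2 difference -0.93 ± 0.20, limma adjusted p = 0.0102), a fall beside the rise of its substrates Nppa and Nppb.

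Fuel genes were taken by pathway. For fatty acid uptake, storage and oxidation 1 rose and 32 fell of 53 tested, with a median log2 difference of -0.69 (2 and 35 without TAC replicate 1, 0 and 15 without TAC replicate 2, 0 and 19 without TAC replicate 3 or sham replicate 2, 0 and 28 without sham replicate 1, 0 and 24 without sham replicate 3, 0 and 7 from the vector hearts alone). Against a minimum fold of 1.5, the call was kept by 1 of these genes. Acot1, a thioesterase that releases free fatty acid from its CoA ester, had 64.7, 24.5 and 26.7 in TAC hearts, against 176, 187 and 191 in sham hearts. The Acot1 log2 difference was -2.37 ± 0.29 (limma adjusted p = 0.000142). Its neighbour Acot2, a close copy that may share reads, had a log2 difference of -0.91. Both were lower in every TAC heart than in any sham heart. Among the oxidation enzymes, Ech1 had 11195, 6234 and 7397 in TAC hearts, against 21765, 17663 and 15885 in sham hearts (log2 difference -1.19 ± 0.23, limma adjusted p = 0.0041). The medium-chain dehydrogenase Acadm had 11182, 7130.1 and 7902 in TAC hearts, against 14259.6, 15966 and 14812 in sham hearts. The Acadm log2 difference was -0.81 ± 0.19 (limma adjusted p = 0.0143), and the call was lost without TAC replicates 2 or 3 or sham replicate 2 (limma adjusted p up to 0.086). The trifunctional protein subunits Hadha (12098, 8855 and 9851 in TAC hearts, against 16188, 20052 and 18433 in sham hearts) and Hadhb (13049, 9396 and 10899 in TAC hearts, against 19081, 18475 and 18049 in sham hearts) fell (log2 differences -0.83 and -0.75). For Hadha the call was lost without TAC replicates 2 or 3 or sham replicate 2 (limma adjusted p up to 0.0769), and for Hadhb the call was lost without TAC replicates 2 or 3 or sham replicates 2 or 3 (limma adjusted p up to 0.123). Dgat2 and Plin4, which serve triglyceride storage, fell (log2 differences -0.97 and -0.95), as did Lpin1, a phosphatidate phosphatase and PPAR coactivator (log2 difference -0.82). The fatty acid transporter Cd36 was not called (log2 difference -0.51 ± 0.20, limma adjusted p = 0.166), nor was Cpt1b (log2 difference -0.38 ± 0.28, limma adjusted p = 0.524). The Cpt1b values of 34.2 to 69.7 were low in all 6 hearts. How reads shared between genes were counted is not stated, so these values may understate its level.

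Citrate cycle and pyruvate entry genes gave 0 rises and 20 falls among 38 tested genes, with a median log2 difference of -0.57 (0 and 32 without TAC replicate 1, 0 and 7 without TAC replicate 2, 0 and 12 without TAC replicate 3, 0 and 9 without sham replicate 2, 0 and 4 from the vector hearts alone). Pdp2, a phosphatase that activates pyruvate dehydrogenase, had 108, 87 and 124 in TAC hearts, against 383, 311 and 439 in sham hearts. The Pdp2 log2 difference was -1.82 ± 0.18 (limma adjusted p = 4.48e-05). The alanine transaminases Gpt2 (479, 239 and 297 in TAC hearts, against 823, 1032 and 905 in sham hearts) and Gpt fell (log2 differences -1.50 and -1.49). In neither of them did the groups overlap. Idh3a, a subunit of isocitrate dehydrogenase, had 5916, 4280.2 and 4492 in TAC hearts, against 8007, 9024 and 7828 in sham hearts (log2 difference -0.77 ± 0.15, limma adjusted p = 0.00477). Citrate synthase (Cs) had 10718, 9776 and 10164 in TAC hearts, against 13739, 19275 and 18198 in sham hearts. The Cs log2 difference was -0.73 ± 0.18 (limma adjusted p = 0.0208), and the call was lost without TAC replicates 2 or 3 or sham replicates 2 or 3 (limma adjusted p up to 0.0994). Sdha, which belongs to both the cycle and the respiratory chain, had 12595, 9679 and 11299.7 in TAC hearts, against 17581, 21369.6 and 19986 in sham hearts. The Sdha log2 difference was -0.82 ± 0.19 (limma adjusted p = 0.0137), and the call was lost without TAC replicate 2 or sham replicate 2 (limma adjusted p up to 0.078).

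Respiratory chain calls differed with and without TAC replicate 1. Of 62 oxidative phosphorylation subunits 0 rose and 1 fell in limma, 25 fell at an unadjusted p under 0.05, 3 fell in edgeR, 0 fell from the vector hearts alone and 56 fell in limma without TAC replicate 1. The mean of the list, as a log2 difference from the sham mean, was 0.16, -0.71 and -0.68 in the TAC hearts and 0.23, -0.17 and -0.06 in the sham hearts. TAC replicate 1 was above the sham hearts' mean, and the other two TAC hearts were below it. The call in this list, which leaves out Sdha, was Ndufs1 of complex I, at 5406, 4305 and 4953 in TAC hearts, against 8116, 8884 and 7729 in sham hearts (log2 difference -0.76 ± 0.16, limma adjusted p = 0.00715). Uqcrc1 of complex III had 14357, 10678 and 10914 in TAC hearts, against 17682, 18975 and 16725 in sham hearts without a call (log2 difference -0.58 ± 0.18, limma adjusted p = 0.0656), and it was called without TAC replicate 1 (log2 difference -0.72, limma adjusted p = 0.00215). Mitochondrial carriers and maintenance genes gave 2 rises and 12 falls among 44 tested genes, with a median log2 difference of -0.42 (2 and 28 without TAC replicate 1, 1 and 6 without TAC replicate 2, 2 and 6 without TAC replicate 3, 1 and 15 without sham replicate 1, 1 and 8 without sham replicate 2, 2 and 7 without sham replicate 3, 0 and 2 from the vector hearts alone). Slc25a42, a CoA carrier, had 356, 292 and 345 in TAC hearts, against 673, 1051 and 1009 in sham hearts. The Slc25a42 log2 difference was -1.44 ± 0.16 (limma adjusted p = 9.11e-05).

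Of branched-chain amino acid and ketone body genes 0 rose and 16 fell of 25 tested, with a median log2 difference of -0.67 (0 and 10 without TAC replicate 2 or sham replicate 2, 1 and 13 without sham replicate 3, 0 and 8 from the vector hearts alone). That was the largest called share of the lists of metabolic genes in this fit. Without TAC replicate 1 the share of the oxidative phosphorylation list, 56 of 62, was larger. Against a minimum fold of 1.5, calls were kept by 1 gene of the branched-chain and ketone list. The citrate cycle list kept 3 and the list of mitochondrial carriers and maintenance 1. Ppm1k, the phosphatase that activates the branched-chain ketoacid dehydrogenase, had 377, 332 and 451 in TAC hearts, against 889.6, 1213 and 1200.02 in sham hearts. The Ppm1k log2 difference was -1.50 ± 0.19 (limma adjusted p = 0.000224). Ivd, which acts on the leucine breakdown product isovaleryl-CoA, had 3167, 2455 and 2844 in TAC hearts, against 4663, 6212 and 6303 in sham hearts (log2 difference -1.01 ± 0.16, limma adjusted p = 0.00106). Aldh6a1 of valine breakdown fell (log2 difference -0.96). Mccc1 of leucine breakdown and the dehydrogenase subunit Bckdha also fell (log2 differences -0.86 and -0.89). The ketone enzyme Bdh1 was not called (log2 difference 0.77 ± 0.35, limma adjusted p = 0.235), with sham replicate 3 inside the TAC range.

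Proline genes, the subject of the series, were mixed: 3 rose and 1 fell of 19 tested, with a median log2 difference of 0.13 (8 and 3 without TAC replicate 1). Prodh stood at 245, 172 and 159.6 in TAC hearts, against 334, 292 and 379 in sham hearts, with no overlap and no call (log2 difference -0.82 ± 0.24, limma adjusted p = 0.0553), and it was called without TAC replicate 1 (log2 difference -1.0, limma adjusted p = 0.00697). Aldh4a1, the second enzyme of proline breakdown, had 702, 586 and 635 in TAC hearts, against 914, 1175 and 1269 in sham hearts. The Aldh4a1 log2 difference was -0.79 ± 0.15 (limma adjusted p = 0.00479). On the synthesis side, Aldh18a1 had 223, 335 and 318 in TAC hearts, against 115, 182 and 149 in sham hearts. The Aldh18a1 log2 difference was 0.97 ± 0.18 (limma adjusted p = 0.00412). Pycr1 had 48, 58 and 45.2 in TAC hearts, against 10.3, 13.6 and 21 in sham hearts (log2 difference 1.73 ± 0.37, limma adjusted p = 0.00843). Both breakdown enzymes were lower and both synthesis enzymes higher in all 3 TAC hearts than in any sham heart.

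Glucose genes gave 1 rise and 7 falls among 39 tested genes, with a median log2 difference of -0.14 (3 and 13 without TAC replicate 1, 1 and 4 without TAC replicate 2 or 3, 1 and 4 from the vector hearts alone). Pfkfb1, the bifunctional enzyme that sets fructose 2,6-bisphosphate, had 33.5, 11.9 and 21.2 in TAC hearts, against 213, 235 and 139.8 in sham hearts. The Pfkfb1 log2 difference was -3.16 ± 0.32 (limma adjusted p = 4.73e-05). Slc2a4, the insulin-responsive GLUT4 transporter, had 3474, 2956 and 3194 in TAC hearts, against 5182, 5662 and 6421 in sham hearts. The Slc2a4 log2 difference was -0.84 ± 0.15 (limma adjusted p = 0.00221). Slc2a1 (GLUT1) was not called (log2 difference 0.24 ± 0.22, limma adjusted p = 0.623). Fbp2, a muscle fructose bisphosphatase, fell (log2 difference -1.61), as did Ldhd, which handles D-lactate (log2 difference -1.04). Pfkp rose, with 1275, 2128 and 1566 in TAC hearts, against 643, 891 and 758 in sham hearts (log2 difference 1.10 ± 0.18, limma adjusted p = 0.00137). Hexokinase 2 (Hk2) fell (log2 difference -0.56), but the call was lost without TAC replicates 2 or 3 or sham replicates 2 or 3 (limma adjusted p up to 0.169).

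Regulators of metabolism gave 1 rise and 8 falls among 38 tested genes, with a median log2 difference of -0.30 (5 and 11 without TAC replicate 1, 1 and 4 without TAC replicate 2, 1 and 5 without sham replicate 2 or 3, 1 and 2 from the vector hearts alone). Dio2, the deiodinase that makes active thyroid hormone, had 88.1, 558 and 533 in TAC hearts, against 10.3, 10.9 and 24.2 in sham hearts. The Dio2 log2 difference was 4.32 ± 0.56 (limma adjusted p = 0.000258). Klf15, a repressor of hypertrophy that also drives amino acid breakdown, had 819.9, 486 and 602 in TAC hearts, against 1108, 1244 and 1555 in sham hearts. The Klf15 log2 difference was -1.05 ± 0.20 (limma adjusted p = 0.0035). The retinoid receptor Rxrg and the thyroid hormone receptor Thrb fell (log2 differences -0.75 and -0.83). Ppara, the fatty acid receptor, had 329, 145 and 311 in TAC hearts, against 400.04, 512 and 598 in sham hearts (log2 difference -1.01 ± 0.26, limma adjusted p = 0.0288), and the call was lost without TAC replicate 2 or sham replicates 2 or 3 (limma adjusted p up to 0.121). Ppargc1a, a coactivator of mitochondrial genes, was not called (log2 difference -0.59 ± 0.21, limma adjusted p = 0.118).

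Among genes of the integrated stress response 8 rose and 1 fell of 26 tested, with a median log2 difference of 0.41 (11 and 3 without TAC replicate 1, 4 and 1 without TAC replicate 2 or 3, 6 and 2 without sham replicate 1, 5 and 1 without sham replicate 2 or 3, 4 and 1 from the vector hearts alone). Nupr1, a stress-induced nuclear protein, had 453, 551 and 422 in TAC hearts, against 120.3, 85.1 and 74.6 in sham hearts. The Nupr1 log2 difference was 2.36 ± 0.20 (limma adjusted p = 2.23e-05). Gdf15, a secreted stress hormone, had 155, 637 and 301 in TAC hearts, against 17.5, 22.6 and 27.3 in sham hearts. The Gdf15 log2 difference was 3.75 ± 0.46 (limma adjusted p = 0.000158). The transcription factor Atf3 had 241, 363 and 451 in TAC hearts, against 126, 159 and 56.7 in sham hearts (log2 difference 1.69 ± 0.33, limma adjusted p = 0.0044), and none of these 3 genes overlapped between the groups. Atf4 and Ddit3 rose (log2 differences 0.48 and 0.59). For Atf4 the call was lost without TAC replicates 2 or 3 or sham replicate 3 (limma adjusted p up to 0.0625), and for Ddit3 the call was lost without TAC replicates 2 or 3 or sham replicates 2 or 3 (limma adjusted p up to 0.105). Herpud1, an endoplasmic reticulum degradation factor, fell (log2 difference -0.86), and Trib3 overlapped at 78 to 88.4 in TAC hearts and 68.8 to 96.7 in sham hearts. Folding and secretion genes of the endoplasmic reticulum gave 5 rises and 0 falls among 36 tested genes, with a median log2 difference of 0.29 (19 and 1 without TAC replicate 1, 2 and 0 without TAC replicate 2 or sham replicate 2 or 3, 3 and 0 without TAC replicate 3, 1 and 0 from the vector hearts alone). The signal peptidase subunit Spcs3 rose (log2 difference 0.68), while the chaperone Hspa5 was not called (log2 difference -0.16 ± 0.20, limma adjusted p = 0.742).

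Cytosolic heat shock genes gave 2 rises and 1 fall among 24 tested genes, with a median log2 difference of 0.23 (2 and 4 without TAC replicate 1, 0 and 0 without TAC replicate 2 or sham replicate 2, 1 and 0 without TAC replicate 3 or sham replicate 3, 0 and 1 without sham replicate 1, 0 and 0 from the vector hearts alone). The inducible pair Hspa1a and Hspa1b, which are near-identical, varied within both groups, with Hspa1a at 201, 245 and 842 in TAC hearts, against 156, 417 and 118 in sham hearts. The list of antioxidant genes and targets of the stress factor NRF2 gave 3 rises and 2 falls among 38 tested genes, with a median log2 difference of 0.11 (4 and 13 without TAC replicate 1, 2 and 1 without TAC replicate 2 or sham replicate 2, 3 and 1 without TAC replicate 3, 2 and 1 from the vector hearts alone). Nox4, an oxidase that makes hydrogen peroxide, had 135, 240.1 and 184 in TAC hearts, against 30.9, 17.2 and 23.1 in sham hearts (log2 difference 2.92 ± 0.45, limma adjusted p = 0.000958). Gstm1, a glutathione transferase, fell (log2 difference -0.68) and the reticulum peroxidase Gpx7 rose (log2 difference 1.06). Ubiquitin ligase and atrophy genes gave 3 rises and 6 falls among 35 tested genes, with a median log2 difference of 0.03 (3 and 10 without TAC replicate 1, 2 and 3 from the vector hearts alone). Klhl33, a Kelch-like adaptor, had 109, 62.4 and 81.5 in TAC hearts, against 506, 437 and 306 in sham hearts. The Klhl33 log2 difference was -2.29 ± 0.22 (limma adjusted p = 3.45e-05). Asb15 and Asb14, ligase adaptors of muscle, fell (log2 differences -1.45 and -0.86). The atrophy ligases Fbxo32 (log2 difference -0.37 ± 0.19, limma adjusted p = 0.305) and Trim63 (log2 difference 0.04 ± 0.18, limma adjusted p = 0.942) were not called. Cathepsin K (Ctsk) rose, with 273, 303 and 340.4 in TAC hearts, against 86.4, 106 and 90.4 in sham hearts. The Ctsk log2 difference was 1.69 ± 0.16 (limma adjusted p = 3.18e-05). Genes of NAD synthesis and one-carbon metabolism gave 3 rises and 4 falls among 30 tested genes, with a median log2 difference of -0.13 (5 and 7 without TAC replicate 1, 3 and 2 without TAC replicate 2, 2 and 2 without sham replicate 2, 2 and 1 from the vector hearts alone). Mthfd2, of mitochondrial folate metabolism, rose (log2 difference 1.27). Nadk2 and Nampt, of NAD metabolism, fell (log2 differences -1.17 and -0.77), and for Nampt the call was lost without TAC replicate 2 (limma adjusted p up to 0.0611).

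**Figure D4:**
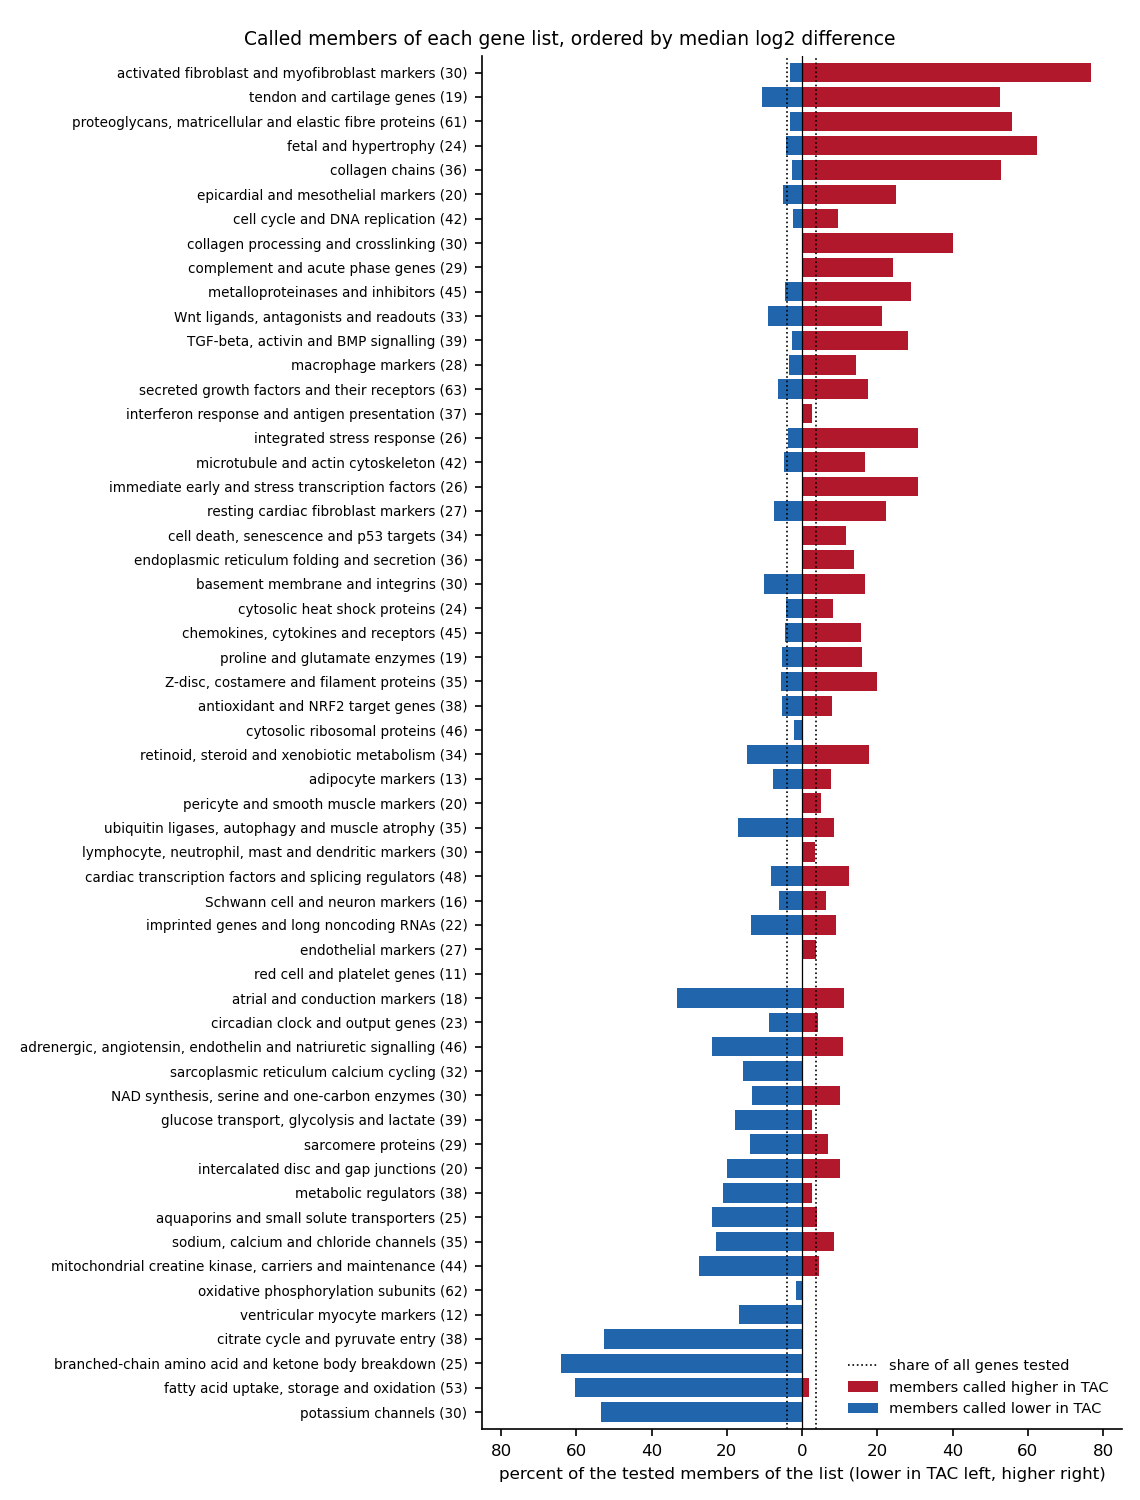
Percent of the tested members of each of 56 gene lists (number tested in brackets) called higher (red, right) or lower (blue, left) in vector TAC than in vector sham hearts; dotted lines mark the 3.72% and 4.05% of all genes called higher and lower, and lists run by their median log2 difference. In this fit activated fibroblast markers had the largest share of rises (23 of 30), and branched-chain amino acid and ketone genes had the largest share of falls (16 of 25).

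Many genes of the extracellular matrix rose. In whole tissue, more cells of a type and more RNA per cell cannot be told apart. Of the collagen chains 19 rose and 1 fell of 36 tested, with a median log2 difference of 1.21 (11 and 1 without TAC replicate 2 or 3 or sham replicate 1, 10 and 1 from the vector hearts alone). Col1a1 had 2820.1, 14726 and 9337 in TAC hearts, against 1182, 2046 and 2231 in sham hearts (log2 difference 2.06 ± 0.42, limma adjusted p = 0.00641). Col3a1 had 8311, 22514 and 16131 in TAC hearts, against 3050.2, 4299 and 5148 in sham hearts. The Col3a1 log2 difference was 1.83 ± 0.29 (limma adjusted p = 0.00111). TAC replicate 1 was the lowest TAC heart for both, by a wide margin, yet above every sham heart. Col8a1, of the short-chain collagens, had 2406, 8945 and 5847 in TAC hearts, against 514, 718 and 414 in sham hearts. The Col8a1 log2 difference was 3.23 ± 0.34 (limma adjusted p = 5.81e-05). Col12a1, which sits on fibril surfaces, had 84.8, 1889 and 1208 in TAC hearts, against 19.5, 17.2 and 18.9 in sham hearts (log2 difference 4.89 ± 0.77, limma adjusted p = 0.00111). Its TAC values were far more spread than its sham values. Col22a1, found at muscle-tendon junctions, had 32.4, 513 and 268 in TAC hearts, against 22.6, 9.05 and 5.25 in sham hearts. The Col22a1 log2 difference was 3.87 ± 0.76 (limma adjusted p = 0.0052). Col6a6 was the collagen that fell (log2 difference -1.77).

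Genes for collagen processing and crosslinking gave 12 rises and 0 falls among 30 tested genes, with a median log2 difference of 0.61 (22 and 1 without TAC replicate 1). Lysyl oxidase (Lox) had 262, 1745 and 901 in TAC hearts, against 69.9, 84.2 and 115 in sham hearts. The Lox log2 difference was 3.07 ± 0.48 (limma adjusted p = 0.000995). Loxl1 and Loxl2 rose (log2 differences 1.82 and 2.09). Sparc, an abundant collagen-binding protein, had 16783, 32902 and 25072 in TAC hearts, against 9788, 10411 and 7573 in sham hearts (log2 difference 1.39 ± 0.23, limma adjusted p = 0.00161). The groups were apart for each of them. Pcolce, which helps trim procollagen, rose (log2 difference 1.22), while the collagen chaperone Serpinh1 was not called (log2 difference 0.57 ± 0.20, limma adjusted p = 0.112).

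Proteoglycans, matricellular and elastic fibre proteins gave 34 rises and 2 falls among 61 tested genes, with a median log2 difference of 1.30 (25 and 1 without TAC replicate 2, 27 and 1 without TAC replicate 3, 30 and 0 without sham replicate 1, 29 and 0 without sham replicate 2, 23 and 1 from the vector hearts alone). Postn, periostin, had 4752, 26238 and 17799 in TAC hearts, against 896, 712 and 673 in sham hearts. The Postn log2 difference was 4.11 ± 0.40 (limma adjusted p = 3.92e-05). Cilp, a matrix protein first known from cartilage, had 3286, 11781 and 10056 in TAC hearts, against 198, 248 and 389 in sham hearts. The Cilp log2 difference was 4.77 ± 0.36 (limma adjusted p = 1.18e-05). Thbs4, a thrombospondin of tendon and stressed heart, had 799.9, 11819.9 and 7880.4 in TAC hearts, against 44.2, 58 and 105 in sham hearts (log2 difference 6.00 ± 0.67, limma adjusted p = 8.9e-05). The lowest TAC heart for all 3 was again replicate 1, and no TAC value reached down to the sham values. Fmod, fibromodulin, had the largest called rise among genes with a mean of at least 10, at 300.1, 2232 and 1608 in TAC hearts, against 6.17, 10.9 and 14.7 in sham hearts. The Fmod log2 difference was 6.54 ± 0.83 (limma adjusted p = 0.000209). Bgn, biglycan, had 11207, 24666 and 17905 in TAC hearts, against 3167, 3759.6 and 5306 in sham hearts. The Bgn log2 difference was 2.10 ± 0.26 (limma adjusted p = 0.000165). Dcn, decorin, had 14773, 15495 and 17302 in TAC hearts, against 10792, 8128 and 7656 in sham hearts (log2 difference 0.85 ± 0.17, limma adjusted p = 0.00528). Elastin (Eln) and the microfibril genes Mfap4 and Mfap5 rose, with log2 differences of 1.97, 2.94 and 2.52. Emilin2 and Efemp1 fell (log2 differences -1.25 and -1.47). For Emilin2 the call was lost without sham replicates 1 or 2 (limma adjusted p up to 0.065), and for Efemp1 the call was lost without TAC replicates 2 or 3 or sham replicates 1 or 2 (limma adjusted p up to 0.15).

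Basement membrane and integrin genes gave 5 rises and 3 falls among 30 tested genes, with a median log2 difference of 0.29 (15 and 3 without TAC replicate 1, 2 and 2 without TAC replicate 2 or 3, 3 and 3 without sham replicate 1 or 3, 2 and 1 from the vector hearts alone, a median of 0.57 without TAC replicate 1). Itgbl1, an integrin beta-like secreted protein, had 1027, 1844 and 1333 in TAC hearts, against 192, 190.2 and 283 in sham hearts. The Itgbl1 log2 difference was 2.64 ± 0.28 (limma adjusted p = 5.81e-05). The integrins Itgb5 and Itga9 rose (log2 differences 0.89 and 0.80), and for Itga9 the call was lost without TAC replicates 2 or 3 or sham replicate 1 (limma adjusted p up to 0.0635). Lamb3 and Itgb6 fell (log2 differences -1.22 and -0.88). The laminins Lama2 (log2 difference 0.36 ± 0.22, limma adjusted p = 0.408), Lamb2 (log2 difference -0.06 ± 0.23, limma adjusted p = 0.926) and Lamc1 (log2 difference 0.33 ± 0.30, limma adjusted p = 0.623) were not called. Proteases and their inhibitors gave 13 rises and 2 falls among 45 tested genes, with a median log2 difference of 0.54 (23 and 4 without TAC replicate 1, 11 and 1 without sham replicate 2, 8 and 1 from the vector hearts alone). Timp1, a metalloproteinase inhibitor, had 263, 628 and 366 in TAC hearts, against 37, 30.8 and 64.1 in sham hearts (log2 difference 3.20 ± 0.35, limma adjusted p = 8.43e-05), whereas Timp3 was not called (log2 difference 0.08 ± 0.23, limma adjusted p = 0.903). The gelatinase Mmp2 had 1680.04, 4438 and 4049 in TAC hearts, against 1128, 1225 and 1058 in sham hearts (log2 difference 1.46 ± 0.25, limma adjusted p = 0.00215). Htra1, a secreted protease, fell (log2 difference -0.92).

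Among signals that act on fibroblasts, the TGF-beta, activin and BMP list gave 11 rises and 1 fall among 39 tested genes, with a median log2 difference of 0.44 (19 and 3 without TAC replicate 1, 9 and 0 without sham replicate 3, 9 and 0 from the vector hearts alone). Tgfb2 had 287, 539.7 and 526 in TAC hearts, against 91.5, 139 and 150.3 in sham hearts. The Tgfb2 log2 difference was 1.79 ± 0.27 (limma adjusted p = 0.000704). Tgfb3 had 561, 1119 and 864 in TAC hearts, against 245, 299.7 and 306 in sham hearts. The Tgfb3 log2 difference was 1.53 ± 0.21 (limma adjusted p = 0.000333). Tgfb1 had the smallest difference of the 3 ligands, at 701, 1103 and 939.8 in TAC hearts, against 587, 626 and 554 in sham hearts (log2 difference 0.61 ± 0.15, limma adjusted p = 0.0204), and the call was lost without TAC replicates 2 or 3 or sham replicate 3 (limma adjusted p up to 0.117). Pmepa1, a feedback target of the pathway, rose (log2 difference 1.48), as did the activin subunit Inhba (log2 difference 2.11). The co-receptor Tgfbr3 fell (log2 difference -0.61), and the call was lost without sham replicate 3 (limma adjusted p up to 0.0539). Wnt genes gave 7 rises and 3 falls among 33 tested genes, with a median log2 difference of 0.49. The secreted antagonists Frzb and Sfrp1 rose (log2 differences 2.69 and 1.82), Wnt5a fell (log2 difference -0.93), and the readout Axin2 was not called (log2 difference -0.04 ± 0.27, limma adjusted p = 0.966).

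Secreted growth factors and receptors gave 11 rises and 4 falls among 63 tested genes, with a median log2 difference of 0.42 (17 and 6 without TAC replicate 1, a median of 0.22 without sham replicate 1). Angpt1, which stabilises vessels, had 117, 90.7 and 114 in TAC hearts, against 305, 529 and 374 in sham hearts. The Angpt1 log2 difference was -1.87 ± 0.19 (limma adjusted p = 4.78e-05). Igf1, insulin-like growth factor, had 527, 782 and 602 in TAC hearts, against 207, 221 and 234 in sham hearts. The Igf1 log2 difference was 1.51 ± 0.22 (limma adjusted p = 0.000598). Hbegf, a ligand of the EGF receptor, had 509, 696 and 708 in TAC hearts, against 246, 294 and 271 in sham hearts (log2 difference 1.22 ± 0.17, limma adjusted p = 0.000367). In these 3 genes the groups did not overlap. Ereg, epiregulin, was counted at 163 reads over the TAC hearts and 2 over the sham hearts, a ratio of 66.7 with a 95% counting interval of 18.2 to 555. Fgf1 fell (log2 difference -0.71), and Vegfa was not called (log2 difference 0.03 ± 0.15, limma adjusted p = 0.943).

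Markers of activated fibroblasts had the highest median of the 56 lists in this fit. There were 23 rises and 1 fall among 30 tested genes, with a median log2 difference of 2.60. Many of its members are the matrix genes given above, so this count is not separate evidence. Cthrc1, a collagen triple helix repeat protein of activated fibroblasts, had 45.7, 219 and 114 in TAC hearts, against 3.09, 0 and 1.05 in sham hearts. The Cthrc1 log2 difference was 5.70 ± 0.64 (limma adjusted p = 9.11e-05). Meox1, a homeobox factor of fibroblast activation, had 930.4, 2006 and 1448 in TAC hearts, against 406, 326 and 193 in sham hearts (log2 difference 2.24 ± 0.28, limma adjusted p = 0.000209). Acta2, smooth muscle alpha-actin and the classical myofibroblast marker, was lower in all 3 TAC hearts without a call, at 647, 1473 and 1712 in TAC hearts, against 2194, 2518 and 1827 in sham hearts. The Acta2 log2 difference was -0.88 ± 0.32 (limma adjusted p = 0.118). Lrrc15 fell, at 158, 82.5 and 168 in TAC hearts, against 359.9, 441 and 467 in sham hearts. The Lrrc15 log2 difference was -1.68 ± 0.23 (limma adjusted p = 0.000325). The summed level of the 30 markers was 21911, 95478 and 69188 in the TAC hearts, against 7838, 8614 and 7686 in the sham hearts.

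Resting fibroblast markers gave 6 rises and 2 falls among 27 tested genes, with a median log2 difference of 0.33 (11 and 5 without TAC replicate 1, 4 and 1 without TAC replicate 2 or sham replicate 3, 5 and 1 without sham replicate 2, 4 and 1 from the vector hearts alone). Their summed level, 82929 to 109760 in TAC hearts and 96664 to 111700 in sham hearts, overlapped between the groups. Pdgfra (log2 difference 0.46 ± 0.13, limma adjusted p = 0.051), Tcf21 (log2 difference 0.45 ± 0.21, limma adjusted p = 0.264) and Gsn (log2 difference -0.07 ± 0.22, limma adjusted p = 0.92) were not called. Pdgfra was called in 8 of the 20 alternatives, among them the one without TAC replicate 1 (log2 difference 0.57, limma adjusted p = 0.0034). Scara5 fell, with 167, 194 and 256 in TAC hearts, against 833, 723 and 564 in sham hearts (log2 difference -1.78 ± 0.20, limma adjusted p = 9.11e-05). Pi16 rose, with 1813, 3976 and 3453 in TAC hearts, against 1236, 939 and 890.03 in sham hearts. The Pi16 log2 difference was 1.53 ± 0.24 (limma adjusted p = 0.000975). Tendon and cartilage genes gave 10 rises and 2 falls among 19 tested genes, with a median log2 difference of 1.86 (8 and 0 without TAC replicate 2 or 3, 9 and 1 without sham replicate 1, 9 and 0 without sham replicate 2 or 3, 8 and 0 from the vector hearts alone). Comp, Fmod and Cilp are also in the list of activated fibroblast markers, so this count is not separate evidence either. Tnmd, tenomodulin of tendon cells, was counted at 346 reads over the TAC hearts and 0 over the sham hearts, at least 94.4-fold higher with the floor set as for Krt8. Its values were 8.92, 134 and 108 in the TAC hearts. Chodl, chondrolectin, had 151 reads against 0, at least 41.2-fold higher on the same floor. Comp, cartilage oligomeric matrix protein, had 284, 3255 and 2319 in TAC hearts, against 11.3, 14.5 and 124 in sham hearts. The Comp log2 difference was 5.49 ± 0.84 (limma adjusted p = 0.000946). The tendon factor Scx had 290.1, 383 and 294 in TAC hearts, against 95.6, 58 and 121 in sham hearts (log2 difference 1.86 ± 0.24, limma adjusted p = 0.000223). Sox9, of cartilage, rose (log2 difference 2.46).

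Immune cells were read from their markers. Macrophage markers gave 4 rises and 1 fall among 28 tested genes, with a median log2 difference of 0.43 (5 and 2 without TAC replicate 1, 2 and 1 without TAC replicate 2 or sham replicate 1, 0 and 1 without sham replicate 2 or 3, 1 and 1 from the vector hearts alone, a median of 0.23 without TAC replicate 1). Their summed level of 17451 to 35767 in TAC hearts overlapped that of 15037 to 22472 in sham hearts, highest in TAC replicate 1. Cd68 (log2 difference 0.63 ± 0.26, limma adjusted p = 0.181), Adgre1 (log2 difference 0.50 ± 0.20, limma adjusted p = 0.163) and Csf1r (log2 difference 0.41 ± 0.13, limma adjusted p = 0.0695) were not called. Retnla, a marker of alternatively activated macrophages, fell, with 7.81, 1.49 and 4.79 in TAC hearts, against 139.9, 109 and 57.8 in sham hearts. The Retnla log2 difference was -4.27 ± 0.50 (limma adjusted p = 0.000116). Trem2 rose (log2 difference 1.27), though the call was lost without sham replicates 2 or 3 (limma adjusted p up to 0.0815). Lymphocyte, neutrophil, mast and dendritic markers gave 1 rise and 0 falls among 30 tested genes, with a median log2 difference of 0.01 (0 and 1 without TAC replicate 1, 0 and 0 without TAC replicate 2 or sham replicate 2, 0 and 0 from the vector hearts alone, medians of -0.24 without TAC replicate 1, 0.28 without TAC replicate 2, 0.31 without TAC replicate 3), and 7 rose and 1 fell at an unadjusted p under 0.05. The T cell gene Cd3e stayed at or below 6.69 in all 6 hearts, and 5 of the 30 markers had at most 3 reads over the sham hearts.

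Complement and acute phase genes gave 7 rises and 0 falls among 29 tested genes, with a median log2 difference of 0.57 (3 and 0 from the vector hearts alone). Serping1, the C1 inhibitor, had 2977, 3578 and 3232 in TAC hearts, against 1548, 1589 and 1965 in sham hearts. The Serping1 log2 difference was 0.94 ± 0.15 (limma adjusted p = 0.00105). Every TAC value exceeded every sham value. C3 was not called (log2 difference 0.44 ± 0.34, limma adjusted p = 0.543), nor was C1qa (log2 difference 0.58 ± 0.25, limma adjusted p = 0.192). Chemokine and cytokine genes gave 7 rises and 2 falls among 45 tested genes, with a median log2 difference of 0.23 (11 and 2 without TAC replicate 1, 3 and 2 without TAC replicate 2 or sham replicate 2 or 3, 4 and 2 without TAC replicate 3 or sham replicate 1, 2 and 1 from the vector hearts alone, a median of 0.44 without sham replicate 1). Tnfrsf12a, the TWEAK receptor Fn14, had 2270.2, 2217 and 2129.5 in TAC hearts, against 753, 849 and 515 in sham hearts. The Tnfrsf12a log2 difference was 1.67 ± 0.19 (limma adjusted p = 0.000102). Interleukin 15 (Il15) fell, with 293, 104 and 134 in TAC hearts, against 524, 493 and 515 in sham hearts. The Il15 log2 difference was -1.67 ± 0.25 (limma adjusted p = 0.000894). Ccl2 (log2 difference -0.44 ± 0.52, limma adjusted p = 0.728), Cxcl12 (log2 difference -0.58 ± 0.30, limma adjusted p = 0.315) and Il6, at most 5.2 in any heart (log2 difference 1.38 ± 0.72, limma adjusted p = 0.313), were not called. Interferon and antigen presentation genes gave 1 rise and 0 falls among 37 tested genes, with a median log2 difference of 0.42 (2 and 0 without TAC replicate 1 or sham replicate 1, 0 and 0 without TAC replicate 2 or sham replicate 2 or 3, 3 and 0 without TAC replicate 3). At an unadjusted p under 0.05, 13 rose, and edgeR called 5. The rise was Ifit2 (log2 difference 0.68), for which the call was lost without TAC replicate 2 or sham replicates 2 or 3 (limma adjusted p up to 0.137). The list mean, as a log2 difference from the sham mean, was 0.77, 0.52 and 0.20 in the TAC hearts and 0.23, -0.05 and -0.18 in the sham hearts.

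Cell cycle genes gave 4 rises and 1 fall among 42 tested genes, with a median log2 difference of 0.71 (0 and 1 without TAC replicate 2 or sham replicate 3, 1 and 1 without TAC replicate 3, 0 and 1 from the vector hearts alone, a median of 0.40 without sham replicate 3). The proliferation markers Mki67 (log2 difference 0.71 ± 0.42, limma adjusted p = 0.396) and Top2a (log2 difference 0.87 ± 0.46, limma adjusted p = 0.321) were not called, and Mki67 overlapped at 105, 269 and 146 in TAC hearts, against 103, 165 and 54.6 in sham hearts. Cdkn1c, a cell cycle inhibitor, fell, with 253, 201 and 225 in TAC hearts, against 624, 409 and 420.3 in sham hearts (log2 difference -1.07 ± 0.18, limma adjusted p = 0.00147). Cdkn1a (p21) rose (log2 difference 0.59), and the call was lost without TAC replicates 2 or 3 or sham replicates 2 or 3 (limma adjusted p up to 0.173). Immediate early and stress transcription factors gave 8 rises and 0 falls among 26 tested genes, with a median log2 difference of 0.35 (14 and 0 without TAC replicate 1, 4 and 0 from the vector hearts alone, medians of 0.63 without TAC replicate 1, 0.55 without sham replicate 1, 0.11 without sham replicate 3). Myc had 74.7, 149 and 144 in TAC hearts, against 35, 40.8 and 38.9 in sham hearts. The Myc log2 difference was 1.59 ± 0.29 (limma adjusted p = 0.00264). Egr2 had 30.1, 110.01 and 111 in TAC hearts, against 9.26, 17.2 and 5.25 in sham hearts (log2 difference 2.79 ± 0.58, limma adjusted p = 0.00747), whereas Fos (log2 difference 0.02 ± 0.52, limma adjusted p = 0.994) and Egr1 (log2 difference -0.04 ± 0.60, limma adjusted p = 0.984) were not called. Clock genes gave 1 rise and 2 falls among 23 tested genes, with a median log2 difference of -0.08 (4 and 3 without TAC replicate 1, 0 and 1 without TAC replicate 2 or sham replicate 2 or 3, 0 and 3 without TAC replicate 3, 1 and 1 without sham replicate 1, 0 and 1 from the vector hearts alone). The output factor Hlf fell, with 211, 323 and 396 in TAC hearts, against 651, 704 and 608 in sham hearts. The Hlf log2 difference was -1.12 ± 0.23 (limma adjusted p = 0.00724). Cell death and p53 target genes gave 4 rises and 0 falls among 34 tested genes, with a median log2 difference of 0.29 (6 and 3 without TAC replicate 1, 1 and 0 without TAC replicate 2, 2 and 0 without TAC replicate 3 or sham replicate 3, 2 and 0 from the vector hearts alone). Phlda3, a p53 target, had 601, 806 and 671 in TAC hearts, against 325, 254 and 222 in sham hearts (log2 difference 1.38 ± 0.16, limma adjusted p = 0.000113).

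Transcription factors of heart and stroma gave 6 rises and 4 falls among 48 tested genes, with a median log2 difference of 0.01 (13 and 5 without TAC replicate 1, 5 and 9 without sham replicate 1). Tbx5, a cardiac T-box factor, had 82.5, 83.2 and 92.5 in TAC hearts, against 227, 227 and 230.1 in sham hearts (log2 difference -1.40 ± 0.14, limma adjusted p = 4.06e-05), and the sham hearts were almost equal. Hopx, a homeodomain-only cofactor, had 1707, 603 and 827 in TAC hearts, against 3089, 2615 and 2765 in sham hearts. The Hopx log2 difference was -1.57 ± 0.26 (limma adjusted p = 0.00163). Rbfox1, a splicing regulator, fell (log2 difference -1.60). Gata4 (log2 difference 0.11 ± 0.14, limma adjusted p = 0.756), Nkx2-5 (log2 difference -0.22 ± 0.11, limma adjusted p = 0.288) and Mef2c (log2 difference -0.03 ± 0.15, limma adjusted p = 0.942) were not called. Long noncoding RNAs included Chaer1, an epigenetic regulator of hypertrophy, which fell, with 2.23, 2.97 and 4.11 in TAC hearts, against 41.1, 37.1 and 26.3 in sham hearts. The Chaer1 log2 difference was -3.13 ± 0.42 (limma adjusted p = 0.000305). The imprinted and noncoding list gave 2 rises and 3 falls among 22 tested genes, with a median log2 difference of -0.03 (1 and 3 without TAC replicate 2 or 3 or sham replicate 1 or 3, 1 and 2 without sham replicate 2, 0 and 2 from the vector hearts alone, a median of 0.24 without TAC replicate 1). Over all genes tested, 20 lincRNAs rose and 30 fell, 4.79% of 1044, against 9.8% of 15517 protein-coding genes.

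Other cell types were read from their markers. Endothelial markers gave 1 rise and 0 falls among 27 tested genes, with a median log2 difference of -0.05 (3 and 1 without TAC replicate 1, 0 and 0 without TAC replicate 2 or 3 or sham replicate 2 or 3, 0 and 1 without sham replicate 1, 0 and 0 from the vector hearts alone, a median of 0.15 without TAC replicate 1). Pecam1 (log2 difference 0.02 ± 0.15, limma adjusted p = 0.965), Cdh5 (log2 difference -0.13 ± 0.24, limma adjusted p = 0.841) and Kdr (log2 difference -0.05 ± 0.27, limma adjusted p = 0.962), which mark vessel lining, were not called. Pericyte and smooth muscle markers gave 1 rise and 0 falls among 20 tested genes, with a median log2 difference of 0.06 (6 and 0 without TAC replicate 1, 0 and 0 without TAC replicate 2 or 3 or sham replicate 1 or 2, 0 and 0 from the vector hearts alone, a median of 0.26 without TAC replicate 1). Rgs5, a pericyte marker, had 8943, 13543 and 13765 in TAC hearts, against 13253, 11679 and 9489 in sham hearts, so that the groups overlapped. Mesothelial markers gave 5 rises and 1 fall among 20 tested genes, with a median log2 difference of 1.00 (4 and 0 without TAC replicate 2, 5 and 0 without TAC replicate 3 or sham replicate 1 or 2, 5 and 0 from the vector hearts alone, a median of 0.25 without TAC replicate 1), and the list mean, as a log2 difference from the sham mean, was 2.54, 0.48 and 0.31 in the TAC hearts and 0.20, -0.41 and 0.21 in the sham hearts. Upk3b, Msln, Krt8 and 4 more of its 20 members had at most 3 reads over the sham hearts. Aldh1a2, a retinoic acid enzyme of activated epicardium, rose, with 268, 273 and 199 in TAC hearts, against 45.2, 57 and 76.7 in sham hearts (log2 difference 2.05 ± 0.24, limma adjusted p = 0.00012). Red cell and platelet genes gave 0 rises and 0 falls among 11 tested genes, with a median log2 difference of -0.06 (medians of -0.54 without TAC replicate 1, 0.56 without TAC replicate 2, 0.29 without TAC replicate 3, 0.15 without sham replicate 1, -0.56 without sham replicate 2, 0.33 without sham replicate 3). In limma 0 of them passed an unadjusted p under 0.05 and edgeR called 0. On the same log2 scale their mean was 1.29, -0.95 and -0.16 in the TAC hearts and 0.10, -0.93 and 0.82 in the sham hearts, highest in TAC replicate 1. Adipocyte markers gave 1 rise and 1 fall among 13 tested genes, with a median log2 difference of 0.07 (0 and 1 from the vector hearts alone, a median of 0.30 without TAC replicate 2), with Adipoq at most 5.58 in any heart. Schwann cell and neuron markers gave 1 rise and 1 fall among 16 tested genes, with a median log2 difference of 0 (3 and 1 without TAC replicate 1, 0 and 1 without TAC replicate 2 or sham replicate 3, 0 and 0 without TAC replicate 3 or sham replicate 2, 0 and 0 from the vector hearts alone). Ventricular myocyte markers gave 0 rises and 2 falls among 12 tested genes, with a median log2 difference of -0.45 (0 and 5 without TAC replicate 1, 0 and 0 without TAC replicate 2 or 3 or sham replicate 3, 0 and 1 without sham replicate 2, 0 and 0 from the vector hearts alone). Atrial and conduction markers gave 2 rises and 6 falls among 18 tested genes, with a median log2 difference of -0.07 (1 and 4 from the vector hearts alone, a median of -0.28 without TAC replicate 3). Kcnj3, Hcn4 and Tbx5, given above as falls, are members of this list too. The kinase Sbk2 fell, with 7.81, 8.18 and 10.3 in TAC hearts, against 92.5, 109 and 61 in sham hearts. The Sbk2 log2 difference was -3.15 ± 0.32 (limma adjusted p = 4.78e-05). Ribosomal protein genes gave 0 rises and 1 fall among 46 tested genes, with a median log2 difference of 0.09 (0 and 6 without TAC replicate 1, 0 and 0 from the vector hearts alone, medians of -0.36 without TAC replicate 1, 0.31 without TAC replicate 2, 0.30 without TAC replicate 3). Their mean from the sham mean was 0.96, -0.41 and -0.36 in the TAC hearts and 0.29, -0.33 and 0.04 in the sham hearts on the log2 scale. The fall was Rpl3l, the muscle paralog of Rpl3, at 2851, 1134 and 1460.3 in TAC hearts, against 3218, 4050.3 and 3831 in sham hearts. The Rpl3l log2 difference was -1.13 ± 0.24 (limma adjusted p = 0.00768).

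**Figure D5:**
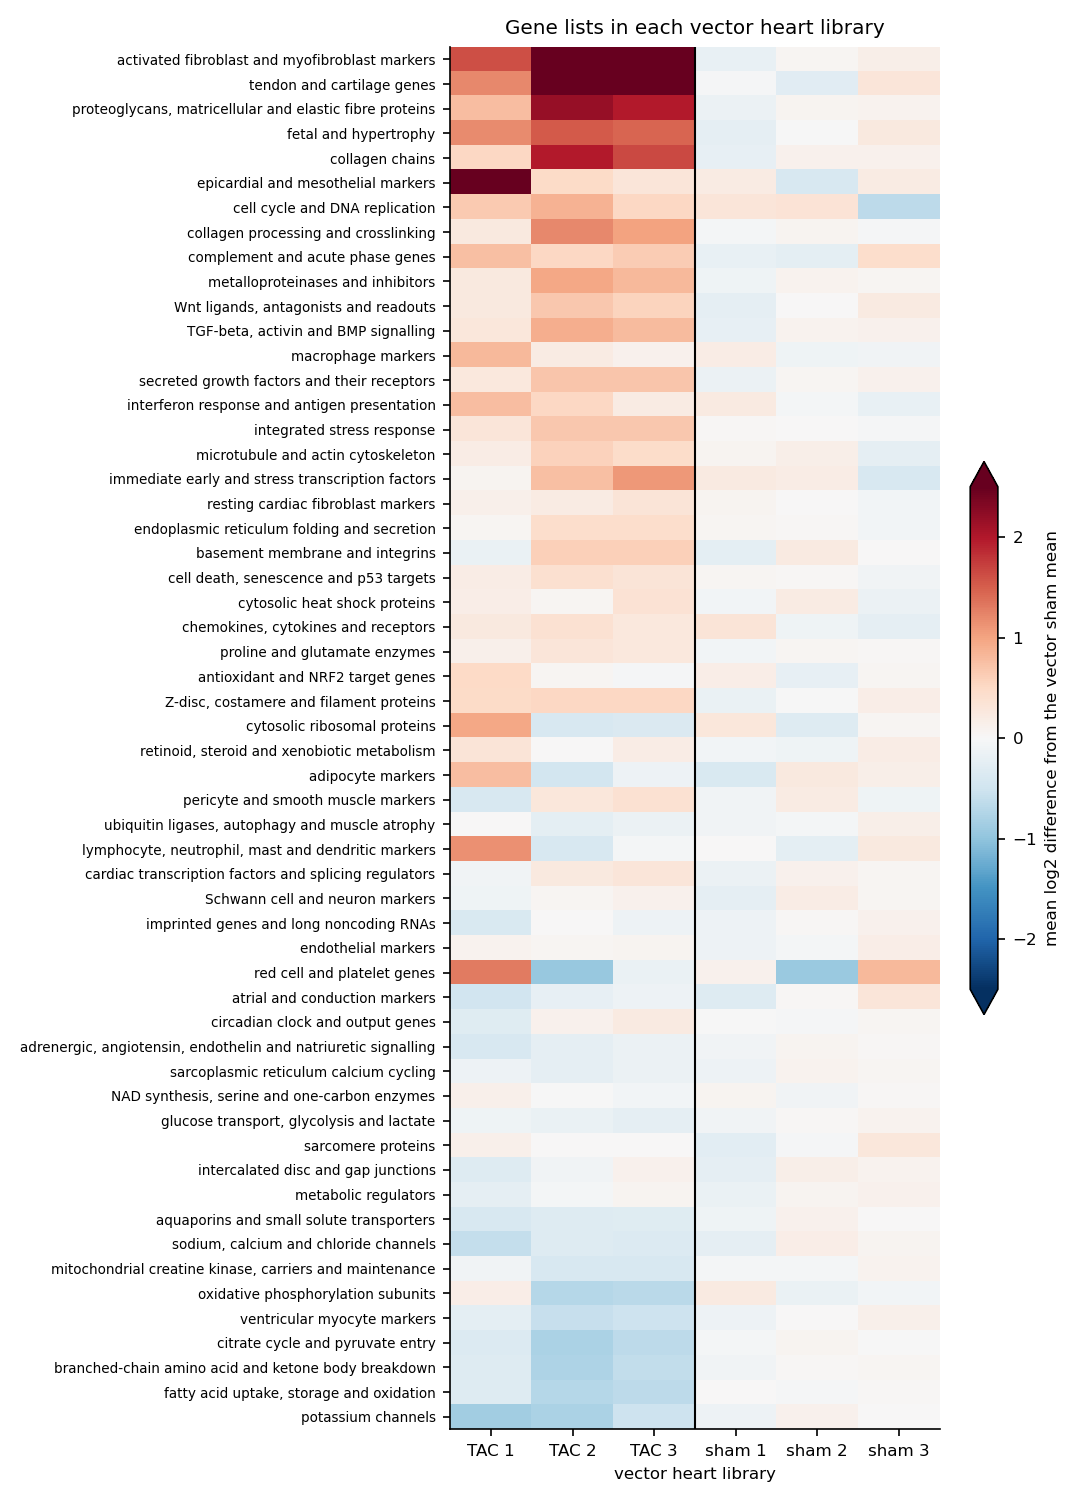
Mean log2 difference of the tested members of each of 56 gene lists from the vector sham mean, in the 3 vector TAC hearts (left of the line) and the 3 vector sham hearts (right); red is higher, blue lower, and colours stop at 2.5 in either direction. TAC replicate 1 departs from the other two TAC hearts for mesothelial (2.54), red cell (1.29) and ribosomal (0.96) genes, and its matrix lists are paler.

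Small solute transporters gave 1 rise and 6 falls among 25 tested genes, with a median log2 difference of -0.33 (3 and 8 without TAC replicate 1). Aqp4, a water channel of the myocyte membrane, showed the largest fall among called genes with a mean of at least 10, with 3.35, 0 and 1.37 in TAC hearts, against 129.6, 87.8 and 38.9 in sham hearts (log2 difference -5.15 ± 0.60, limma adjusted p = 0.000113). Aqp8 rose, with 301, 291 and 252 in TAC hearts, against 23.6, 18.1 and 69.3 in sham hearts. The Aqp8 log2 difference was 3.13 ± 0.45 (limma adjusted p = 0.000511). The endothelial channel Aqp1 was not called (log2 difference -0.09 ± 0.20, limma adjusted p = 0.87). Retinoid, steroid and xenobiotic genes gave 6 rises and 5 falls among 34 tested genes, with a median log2 difference of 0.08 (5 and 3 without TAC replicate 2 or sham replicate 2, 5 and 1 from the vector hearts alone). Ces1d, a carboxylesterase, had 319, 174 and 302 in TAC hearts, against 1824, 1959 and 1073 in sham hearts. The Ces1d log2 difference was -2.61 ± 0.28 (limma adjusted p = 6.04e-05). Cyp1a1, the classical dioxin-responsive oxygenase, had 70.3, 0.74 and 4.11 in TAC hearts, against 148, 117 and 89.3 in sham hearts. The Cyp1a1 log2 difference was -3.76 ± 0.90 (limma adjusted p = 0.0175), and the call was lost without TAC replicates 2 or 3 or sham replicates 1 or 2 (limma adjusted p up to 0.0772).

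Further genes stood among the largest differences without belonging to those lists. Atp6v0a4, a subunit of the vacuolar proton pump, had 45.7, 228 and 186 in TAC hearts, against 0, 6.34 and 1.05 in sham hearts. The Atp6v0a4 log2 difference was 5.67 ± 0.78 (limma adjusted p = 0.000394). Serpinb1c, a serine protease inhibitor, had 131, 139 and 93.2 in TAC hearts, against 1.03, 0 and 7.36 in sham hearts (log2 difference 5.55 ± 0.70, limma adjusted p = 0.000198). Sprr1a, a small proline-rich protein, was counted at 209 reads over the TAC hearts and 1 over the sham hearts, a ratio of 171 with a 95% counting interval of 30.4 to 6790. These 3 genes were near 0 in the sham hearts. Lvrn, a membrane aminopeptidase, fell, with 24.5, 3.72 and 6.16 in TAC hearts, against 95.6, 83.3 and 111 in sham hearts. The Lvrn log2 difference was -3.35 ± 0.46 (limma adjusted p = 0.000365). Rp1, a microtubule-associated gene, had 0, 0.74 and 1.37 in TAC hearts, against 38, 19 and 6.3 in sham hearts (log2 difference -3.48 ± 0.83, limma adjusted p = 0.0175), though the call was lost without TAC replicate 2 or sham replicates 1 or 2 (limma adjusted p up to 0.0734). Among the most abundant called genes, Pam, an enzyme that amidates peptides, rose, with 14177, 16479 and 17261 in TAC hearts, against 6658, 7748 and 10538 in sham hearts. The Pam log2 difference was 0.96 ± 0.20 (limma adjusted p = 0.00635). Eno3, muscle enolase, fell, with 14135, 8288 and 9090.1 in TAC hearts, against 19806, 18353 and 18703 in sham hearts (log2 difference -0.89 ± 0.21, limma adjusted p = 0.0152), where the call was lost without TAC replicates 2 or 3 (limma adjusted p up to 0.0908). Among genes given above as not called, Il6, Lama2, Lamc1, Serpinh1 and Timp3 were called without TAC replicate 1. Bdh1 and Myot were called without sham replicate 3, and Cdh2 and Ppargc1a without sham replicate 1. Of the 20 alternatives, 2 called Cd36, 2 called Csf1r and 1 called Myh6.

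The response was set beside that of the mice with the PRODH virus by testing the difference between both responses in the same fit. Of 21173 genes 22 were called (0.104%), of which 12 had risen and 10 had fallen in the vector hearts, whose libraries enter both contrasts. The 787 rises had a median of -0.78 for the PRODH response minus the vector response, and the 858 falls a median of 0.55, values that share the vector hearts with the choice of these genes and are given as a description. The number called was unstable, at 0 to 412 with 1 vector library left out.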

How the data were processed

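Hearts of 12 mice were sequenced. TRIzol extraction, removal of DNA by DNase I and library preparation with a SMARTER mRNA kit are recorded per the labels' protocols. The sources used here name no aligner, counting tool, genome build or annotation and do not state use of strand, so a gene and its antisense partner cannot be told apart.

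The authors' deposited table holds a signal: read counts per gene divided by a size factor per library, for 24775 genes. Whole reads were recovered from the steps of the deposited values for 100% of values within a tolerance of 0.01. Gene identifiers were matched to GENCODE M21 for biotypes and exon lengths (24735 matched, 24104 with the same symbol), and no mitochondrially encoded gene is listed.

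The 21173 genes that reached 1 in any 3 of the 12 libraries were tested with limma 3.58.1 in R 4.3.3, with a trended prior on log2(value + 1), 1 mean per group over all 12 libraries and the Benjamini-Hochberg adjustment. A fold change on this scale understates the change of low genes. The design named edgeR for raw counts and limma for normalised values, and the unit called for limma. An exact permutation test of 3 hearts against 3 cannot go below p = 0.1, so none is given. Alternatives used edgeR 4.0.16 and DESeq2 1.42.0 on the recovered reads. The fit was tested on simulated data.

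Members and gene lists were chosen with earlier results of these data known, so lists are described by counts and medians. Genes named are a short set of cardiac stress genes, the 10 largest called rises and falls whose mean reached 10 and whose groups were apart, the 8 most abundant called genes of each direction without overlap, and, for each list, members with the smallest p and the first as listed. A few further members were named for their role after their values were seen. Symbols starting with Gm and a digit or ending in Rik were not described, and some genes that the rule names are not reported here. Counts of genes at or near 0 take 3 reads over a group as the floor, and intervals cover counting error only.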

Additional observations from a re-analysis of the deposited data

Results flagged for a closer look

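The following genes were picked out by a test of whether their response to TAC differed between the virus groups. The difference is the log2 response in PRODH hearts minus that in vector hearts with its standard error, so a negative value beside a rise means that the rise was larger in vector hearts. Values are means of 3 hearts in normalised read counts.

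Of the genes described above, 8 that rose in the vector hearts gave a call. Nupr1, a stress-induced nuclear protein, averaged 475 in vector TAC and 93.3 in vector sham hearts and 115 in PRODH TAC and 95.4 in PRODH sham hearts, a difference of responses of -2.07 ± 0.28 (limma adjusted p = 0.0137). Ctsk, cathepsin K, averaged 306 in vector TAC and 94.2 in vector sham hearts and 114 in PRODH TAC and 93 in PRODH sham hearts, a difference of responses of -1.40 ± 0.22 (limma adjusted p = 0.0376). Mfap4, a microfibril gene, averaged 2304 in vector TAC and 288 in vector sham hearts and 505 in PRODH TAC and 257 in PRODH sham hearts, a difference of responses of -1.96 ± 0.32 (limma adjusted p = 0.0384). In these 3 genes the PRODH TAC mean lay closer to the PRODH sham mean than the vector means did to each other. Mfap5, a microfibril gene, averaged 3239 in vector TAC and 544 in vector sham hearts and 706 in PRODH TAC and 485 in PRODH sham hearts, a difference of responses of -1.97 ± 0.34 (limma adjusted p = 0.0461). Fmod, fibromodulin, averaged 1380.0 in vector TAC and 10.6 in vector sham hearts and 16.6 in PRODH TAC and 34.6 in PRODH sham hearts, a difference of responses of -6.65 ± 1.17 (limma adjusted p = 0.0461). A further 3 genes had vector sham means near 0. Cthrc1, the activated fibroblast gene, averaged 126 in vector TAC and 1.38 in vector sham hearts and 3.22 in PRODH TAC and 2.96 in PRODH sham hearts, a difference of responses of -5.55 ± 0.91 (limma adjusted p = 0.0384). Chodl, chondrolectin, averaged 37.6 in vector TAC and 0 in vector sham hearts and 0 in PRODH TAC and 0.379 in PRODH sham hearts, a difference of responses of -5.38 ± 0.81 (limma adjusted p = 0.0261). Chodl could pass the filter on low values only with the vector TAC hearts, where it was high, so its call is given as a description. Sprr1a, the small proline-rich protein gene, averaged 58.6 in vector TAC and 0.35 in vector sham hearts and 3.01 in PRODH TAC and 2.57 in PRODH sham hearts, a difference of responses of -5.74 ± 1.01 (limma adjusted p = 0.0461).

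Genes that fell in the vector hearts and gave a call were 3 of those described. Klhl33, the Kelch-like adaptor, averaged 84.4 in vector TAC and 416 in vector sham hearts and 282 in PRODH TAC and 365 in PRODH sham hearts, a difference of responses of 1.94 ± 0.31 (limma adjusted p = 0.0376). Pdp2, the pyruvate dehydrogenase phosphatase, averaged 106 in vector TAC and 377 in vector sham hearts and 279 in PRODH TAC and 359 in PRODH sham hearts, a difference of responses of 1.45 ± 0.26 (limma adjusted p = 0.0461). Hcn2, a pacemaker channel, averaged 235 in vector TAC and 607 in vector sham hearts and 515 in PRODH TAC and 529 in PRODH sham hearts, a difference of responses of 1.33 ± 0.22 (limma adjusted p = 0.0405). The number of genes called in this test ran from 0 to 412 with 1 vector library left out.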

How the results depend on the processing

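With 20 alternatives, none of the 190 called genes named above changed direction while called, and 89 kept their call in every fit that included them. Another 27 named genes, not called, changed sign somewhere. The count of 1645 called genes stayed within 1.5 times under pseudocounts of 0.1 and 10, other filters, TMM, quantile and equal-total scaling (1539 to 1734), edgeR (1698) and DESeq2 (2242). It was 652 (352 higher and 300 lower, with 140 of the 190 named genes) in a fit to the 6 vector libraries alone. Against a minimum fold of 1.5 it was 231 (143 higher and 88 lower, with 89 of the 190). With 1 vector library left out it ran from 821 to 3455 (higher 384 to 1626, lower 437 to 1829). With PRODH sham replicate 2 removed together with vector TAC replicate 1 it was 3602 (1698 higher and 1904 lower). Genes whose groups did not overlap numbered 4272, and 5335 to 8690 with 1 library left out. Smaller groups are apart more often by chance, so these counts cannot be compared directly. The difference of responses, 22 genes, was called for 7 at a pseudocount of 0.1, 7 with a filter at 10, 12 with the filter on the vector libraries, 0 against a minimum fold of 1.5, 197 in DESeq2, 32 in edgeR, 0 to 412 with 1 vector library left out and 274 without both libraries named above. The labels do not say whether replicate numbers pair the hearts. Deviations of same-numbered TAC and sham hearts correlated at 0.27, 0.33 and -0.11. TAC replicates 1 and 2 correlated best with the sham heart of the same number, and TAC replicate 3 with sham replicate 2 (0.4). Deviations of 3 hearts from their own mean depend on one another, so these correlations cannot decide whether the hearts were paired. With a replicate block 1737 genes were called, and 35 for the difference of responses. With 3 hearts a group and one that stood apart, a gene that was not called may still differ, and low counts limit precision further.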
